A study of Mus musculus with 4 samples.

Results

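The regions described here surround the genes Klf4, Klf5 and Grhl3 in a list of genomic sites bound by the transcription factor Gata6 in primary mouse keratinocytes. They were chosen by gene, as all listed peaks whose midpoint on build mm9 lies on chromosome 4 between 55.1 and 55.8 Mb (Klf4), on chromosome 14 between 99.4 and 100.1 Mb (Klf5) or on chromosome 4 between 134.9 and 135.35 Mb (Grhl3). The windows held 22 peaks, 0.181% of the whole deposited list of 20 chromosomes, with 4 at Klf4, 8 at Klf5 and 10 at Grhl3. The gene positions used for distances, 55.54 Mb for Klf4, 99.7 Mb for Klf5 and 135.1 to 135.13 Mb for Grhl3, are rounded to 0.01 Mb, so that each distance from a gene carries an error of about 5 kb.

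Chromatin came from keratinocytes of dorsal skin of mice on a C57BL6/CBA background with the K14deltaNLef1 transgene, infected with a lentivirus for overexpression of Gata6 and cultured with a feeder layer of irradiated 3T3-J2 fibroblasts, which are also mouse cells. The transgene drives a form of the Wnt effector Lef1 without its N-terminus from the keratin 14 promoter, and every library, the controls included, carried both the transgene and the Gata6 virus. The AF1700 library is labelled K14deltaNLef1N and was taken to share that genotype. Gata6 was precipitated with 2 antibodies, AF1700 from R&D Systems and D61E4 from Cell Signaling (1 library each), and the controls were a precipitation with a Flag antibody (1 library) and input DNA (1 library). A single overlap list was analysed, with no value per library, so depth per library and spread between antibodies are unknown, and no sample could be compared with another. The age of the mice and the number of animals are not given in the labels, sites occupied by Gata6 at its normal level cannot be told apart from sites that needed overexpression, and keratinocyte markers could not be checked because the list holds no expression values.

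Klf4, Klf5 and Grhl3 encode transcription factors of the epidermis. Klf4 and Klf5 are zinc-finger proteins of the Krüppel-like family, which bind GC-rich and CACCC sequences: Klf4 is known for its part in terminal differentiation and formation of the skin barrier, and Klf5 is known from proliferating epithelial cells. Grhl3, a member of the grainyhead-like family, is known for barrier formation, epidermal wound repair and closure of the neural tube. Gata6 is a zinc-finger factor of the GATA family and is known in skin from the upper hair follicle and the sebaceous duct. A transcription factor can bind at a promoter, inside a gene or at distant enhancers, and a peak does not by itself show which gene it acts on.

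The promoters of Klf4 and Grhl3 are shown, and the promoter set used held no entry for Klf5. Both sequences are the 250 bases before the transcription start from RefSeq on build GRCm38.p6, minus strand, Klf4 at chr4:55532476-55532725 and Grhl3 at chr4:135573633-135573882. These coordinates belong to another build than the peaks and cannot be set against them. Capitals mark CCACCC on either strand, a core sequence that Krüppel-like factors recognise.
Klf4 promoter: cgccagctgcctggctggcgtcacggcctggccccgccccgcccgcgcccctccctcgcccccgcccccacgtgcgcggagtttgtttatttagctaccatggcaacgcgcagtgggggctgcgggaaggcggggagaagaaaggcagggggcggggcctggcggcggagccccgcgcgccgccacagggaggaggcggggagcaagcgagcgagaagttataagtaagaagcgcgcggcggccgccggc
Grhl3 promoter: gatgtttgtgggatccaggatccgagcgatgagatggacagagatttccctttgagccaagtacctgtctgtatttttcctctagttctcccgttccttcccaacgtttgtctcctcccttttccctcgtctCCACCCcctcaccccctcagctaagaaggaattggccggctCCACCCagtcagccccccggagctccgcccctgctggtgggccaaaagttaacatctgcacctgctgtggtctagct
The site that GATA factors recognise was searched as GATA with A or T before it and A or G after it, AGATAA being an example. It was found on neither strand of either sequence, and 26.5% of 32851 RefSeq promoters of this length hold at least 1 match. The Grhl3 sequence holds 2 copies of CCACCC and the Klf4 sequence 0, and 28.1% of all promoters hold at least 1. GC-rich sites, which Krüppel-like factors also bind, were not searched, so the count of 0 does not show that the Klf4 sequence lacks their sites. The Klf4 sequence is 74.0% G and C and the Grhl3 sequence 56.0%, against a median of 52.4% over all promoters. Matches describe these 250 bases alone, and the sequences under the peaks were not used here.

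Gata6 peaks were densest at Grhl3 and sparsest at Klf4. The Grhl3 window of 450 kb held 22.2 peaks per Mb (95% exact Poisson interval 10.7 to 40.9), 5.67 times the density of chromosome 4 (3.92 per Mb over 596 peaks). The Klf5 window of 700 kb held 11.4 per Mb (4.93 to 22.5), 4.33 times the density of chromosome 14 (2.64 per Mb over 301 peaks). The Klf4 window of 700 kb held 5.71 per Mb (1.56 to 14.6), 1.46 times the density of chromosome 4. Between loci, the density at Grhl3 was 3.89 times that at Klf4 (95% interval 1.12 to 17.0) and 1.94 times that at Klf5 (0.691 to 5.67), an interval that includes equal densities. Klf5 against Klf4 gave a ratio of 2.0 (0.536 to 9.08), which also includes equality. All these intervals cover counting error only and take peaks as independent, and no test over samples could be made.

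Windows of the same length show how common such counts are. On chromosome 4, 1.78% of 337 complete windows of 450 kb held at least the 10 peaks of Grhl3, and the fullest held 12. On chromosome 14, 6.17% of 162 windows of 700 kb held at least the 8 peaks of Klf5, and the fullest held 10. On chromosome 4, 29.5% of 217 windows of 700 kb held at least the 4 peaks of Klf4, so the Klf4 count was an ordinary one for its chromosome. These windows were not chosen to hold a gene, and windows around other genes were not counted. Many held no peak: 165 of the 337, 78 of the 162 and 84 of the 217. The densities and shares therefore do not show how the loci stand among gene-centred windows. Over all autosomes the shares were 3.80% for Grhl3, 16.3% for Klf5 and 37.7% for Klf4. The Klf5 count thus stood higher against sparse chromosome 14 than against the autosomes together, where its density was 2.28 times the mean (95% interval 0.984 to 4.49). The densities also depend on the extent of the windows. With windows of doubled width, the ratio to the chromosome was 2.16 at Klf5, with an interval that now includes equal density (0.934 to 4.26), and 3.40 at Grhl3 (1.76 to 5.94). With a narrower window centred on the gene it was 7.93 at Grhl3 and 0.729 at Klf4, where that window held 1 peak.

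**Figure D1:**
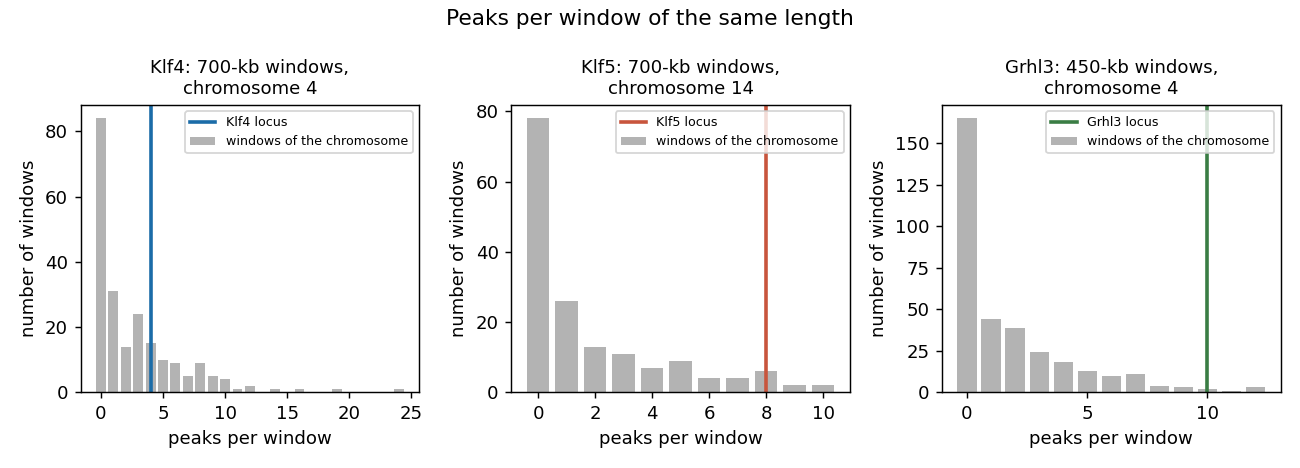
Number of complete windows (vertical axis) by the number of Gata6 peaks they hold (horizontal axis), for windows as long as the Klf4, Klf5 and Grhl3 loci on the chromosome of each locus. The coloured line marks the count of the locus, 4 at Klf4, 8 at Klf5 and 10 at Grhl3, and the grey bars of chromosomes 4 and 14 have a median of 1 peak per window in each panel.

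At Grhl3, peaks stood in a row around the higher end of the rounded interval given for the gene. Grhl3 is on the minus strand in RefSeq, so that its start lies at the end with the higher coordinates. The first 3 peaks of the row, chr4:135125039-135125173, chr4:135126317-135126379 and chr4:135129071-135129235, had midpoints 1.24 and 2.81 kb apart. They were centred 4.89, 3.65 and 0.847 kb below that end, all within the rounding error of 5 kb, so that the list does not place them inside the gene or before its start. The next peak, chr4:135136264-135136413, lay 6.34 kb beyond the interval, more than the rounding error. A pair at chr4:135153644-135153793 and chr4:135155010-135155135 followed at 23.7 and 25.1 kb, with 1.35 kb between the midpoints. These 6 peaks made up most of the locus and spanned 30.0 kb from the first midpoint to the last.

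Such a compact row was rare on chromosome 4. Of 591 runs of 6 neighbouring peaks on the chromosome, 2 were as short, the Grhl3 row included (0.338%), against a median run of 628 kb. Of 594 runs of 3 peaks, 8 (1.35%) were as short as the 4.05 kb of the first 3 peaks of the row. An interval of the length given for Grhl3, moved along chromosome 4 in steps of 10 kb, held at least 3 peaks at 0.474% of 15195 places and at least 1 peak at 9.06%. The 3 peaks at Grhl3 count as inside only with the end as given or 5 kb higher, and 0 peaks are inside with the end 5 kb lower, so this share holds for the rounded interval alone. These measures were chosen after the peaks of the locus had been seen, and they describe the row with no test.

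The remaining 4 peaks of the Grhl3 window were spread out. On the higher side, chr4:135201015-135201169 and chr4:135283695-135283820 lay 71.1 and 154 kb from the interval. On the lower side, chr4:134912245-134912361 and chr4:134975149-134975252 lay 188 and 125 kb away. The window thus held 5 peaks beyond the higher end by more than the rounding error, 2 far below the gene and 3 at the higher end. In the RefSeq order of protein-coding genes on GRCm38.p6, Stpg1 precedes Grhl3 and Ifnlr1 follows it, and which of these the outer peaks adjoin could not be read without an mm9 annotation. The next peaks outside the window stood 71.4 kb below and 104 kb above its edges, and the empty distances from the outermost members, 0.0837 and 0.171 Mb, were reached by 41.2% and 28.2% of the neighbouring distances of chromosome 4. Both distances were thus longer than the median of chromosome 4, 52.9 kb, but common on it.

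At Klf5, 1 peak lay close to the gene and 6 formed a chain on its higher side. The closest, chr14:99684820-99684966, was centred 15.1 kb below the gene position. A peak stood that near or nearer at 6.49% of 11394 places taken every 10 kb on chromosome 14. Above the gene no peak followed for 148 kb, and the stretch across the gene measured 164 kb, a length reached by 36.0% of the neighbouring distances of the chromosome. The chain then began with chr14:99848430-99848484 and chr14:99865247-99865398, at 148 and 165 kb, and went on with chr14:99921030-99921180 and chr14:99947911-99948050, at 221 and 248 kb. It ended with chr14:100023988-100024146 and chr14:100036045-100036205, at 324 and 336 kb. The last member, chr14:99526073-99526228, lay alone 174 kb below the gene. In the RefSeq order the protein-coding gene above Klf5 is Klf12, another Krüppel-like factor, and the gene below is Pibf1. The list does not tell whether the chain adjoins Klf5 or Klf12. The chain was shorter than most runs of as many peaks on chromosome 14. Its tightest 3 peaks spanned 72.7 kb, against a median run of 229 kb, a length not exceeded by 23.1% of such runs. Its 6 peaks spanned 188 kb, against a median run of 1119 kb, a length not exceeded by 8.11%.

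The 8 peaks of Klf5 stood alone on their part of chromosome 14. From the last peak below the locus to the first there were 2.44 Mb without a peak, a distance reached by 9 of 300 neighbouring distances on the chromosome (3.00%). Above the locus 2.15 Mb held no peak, a distance reached by 11 of 300 (3.67%). Within 5.11 Mb, the Klf5 peaks were thus the only listed ones, and they lay within 510 kb of each other. A wider window therefore adds no peak, and the lower ratio of 2.16 comes from the added length. The shares of 3.00% and 3.67% count distances by number, and long distances cover more of the chromosome than their number shows. Of the 162 complete windows of 700 kb on chromosome 14, 78 held no peak, so empty stretches were common there.

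At Klf4 no peak lay near the gene. The nearest, chr4:55591896-55592055, was centred 52.0 kb above the gene position, on the side from which this minus-strand gene is transcribed. At 22.6% of 15198 places taken every 10 kb on chromosome 4 a peak was as near or nearer. A further peak, chr4:55734874-55735025, lay 195 kb above, and chr4:55219170-55219326 and chr4:55266756-55266886 lay 321 and 273 kb below. The stretch without a peak across the gene measured 325 kb, and 16.6% of the 595 neighbouring distances on chromosome 4 were as long or longer. The gene was thus in a gap that is unremarkable for the chromosome. Such shares count distances by number and not by the length they cover. Of the 217 complete windows of 700 kb on chromosome 4, 84 held no peak. Below the first member, 1.75 Mb held no peak, a distance reached by 20 of 595 (3.36%), whereas above the last member the next peak followed after 115 kb, a distance reached by 34.8%. The tightest 3 peaks of the locus spanned 373 kb, and 69.7% of such runs on chromosome 4 were as short or shorter. In the RefSeq order Rad23b precedes Klf4 and Actl7b follows it.

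**Figure D2:**
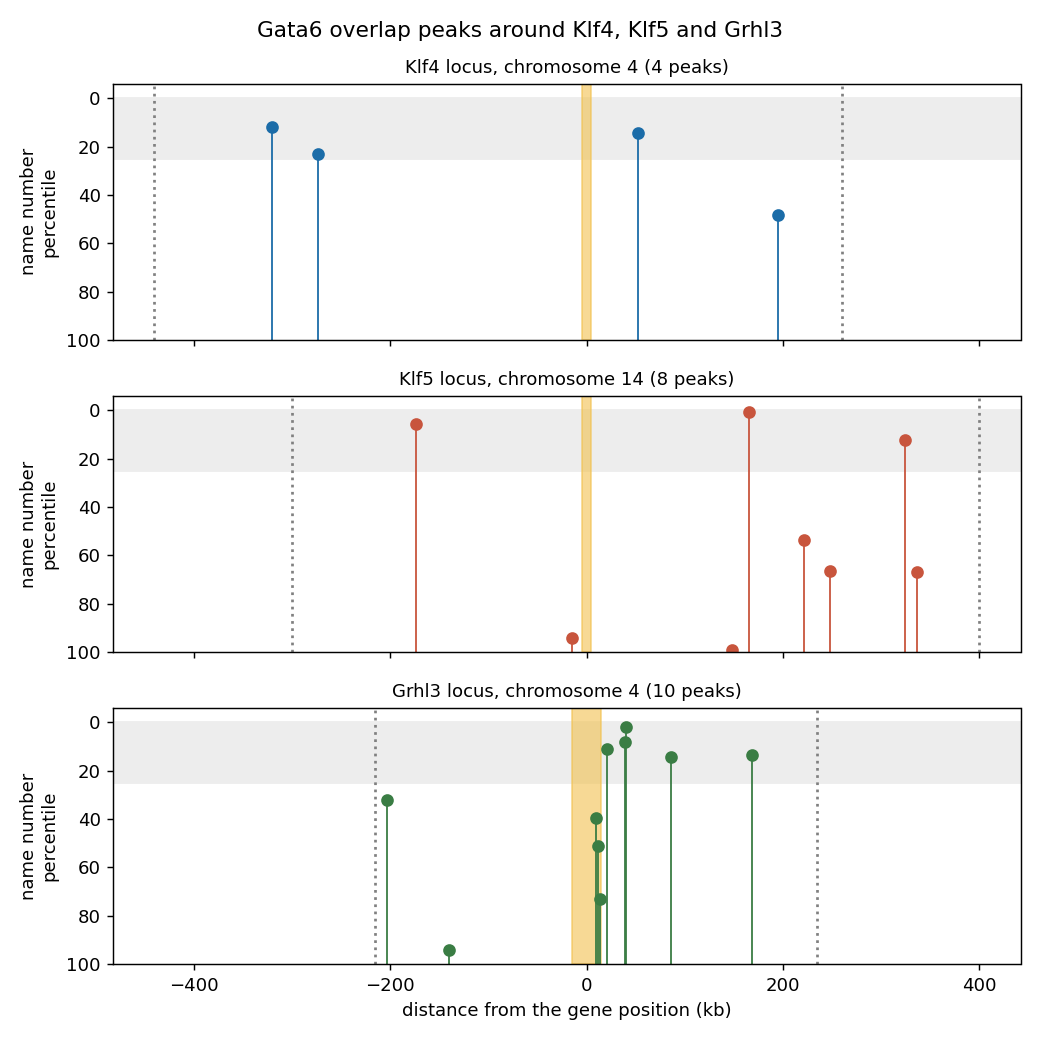
Peaks of the Klf4, Klf5 and Grhl3 loci by distance from the gene position in kb (horizontal axis, 0 at the middle of the position given) and by percentile of the name number among the listed peaks of the chromosome (vertical axis, low numbers at the top, lowest 25% shaded grey). Each point is a peak, the yellow band is the gene position (with its rounding of 5 kb at Klf4 and Klf5, the interval as given at Grhl3), and dotted lines are the window edges: 3 peaks lie at the right edge of the Grhl3 band, within the rounding of that edge, the nearest Klf5 peak is 15.1 kb from the gene and the nearest Klf4 peak 52.0 kb.

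Close neighbours were found at Grhl3. There, 5 of 10 peaks (50%, 95% exact binomial interval 18.7 to 81.3) had another peak within 5 kb, against 19.3% of the other 586 peaks of chromosome 4. At Klf5 it was 0 of 8 (interval up to 36.9%), against 17.1% of the other 293 peaks of chromosome 14, and at Klf4 0 of 4 (interval up to 60.2%), against 19.9% of the other 592 peaks of chromosome 4. The interval of each locus includes the share of its chromosome, so a difference was not detectable with so few peaks. These intervals take peaks as independent, whereas having a neighbour is mutual: the 5 peaks at Grhl3 are 3 in a row and a pair. The median distance between neighbouring members was 17.4 kb at Grhl3, against 52.9 kb over chromosome 4. It was 55.8 kb at Klf5, against 77.2 kb over chromosome 14, and 143 kb at Klf4. With 9, 7 and 3 distances these medians are rough.

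**Figure D3:**
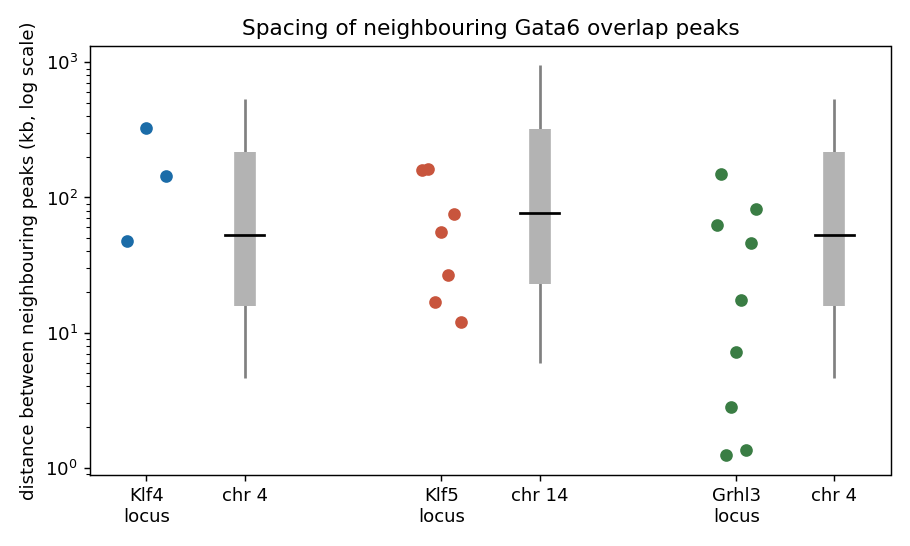
Distance between neighbouring Gata6 peaks in kb on a log scale: coloured points are the distances within each locus, and grey bars beside them give the interquartile range of all neighbouring distances of the chromosome (thin line over the middle 80% of them, black mark at the median). The Grhl3 distances reach down to 1.24 kb, the Klf5 distances to 12.1 kb and the Klf4 distances to 47.6 kb.

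The deposited name of each peak joins its chromosome to a whole number. No label explains that number, here called the name number, and the score column is 0 throughout, so the list gives no peak strength. Low numbers were mostly listed, with 94 of the numbers 1 to 100 in the list on chromosome 4 and 91 on chromosome 14, although the numbers ran to 1627 and 726. Peaks numbered 1 to 100 had a median width of 154 bp on both chromosomes, against 139 bp for higher numbers on chromosome 4 and 140 bp on chromosome 14.

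At Grhl3 the numbers changed with position. The 5 peaks beyond the higher end by more than the rounding error had the name numbers 72, 52, 13, 91 and 86 in order of position. All of these lie within 1 to 100. Over the whole window 5 of 10 peaks were in that range, against 15.2% of the other peaks of chromosome 4. The 3 peaks at the higher end had 297, 392 and 671, and the 2 peaks on the lower side 223 and 1239. The lowest number, 13, belonged to the outer peak of the close pair and ranked as the 12th lowest listed number of chromosome 4, at percentile 1.93. Number 1239 follows directly on 1238, the name of the next peak below the window. The next peak above the window has number 349, and the numbers of peaks further up are not described here. This grouping by position was made after the values had been seen and is a description, and it is no division by parts of the gene.

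At Klf5 the name numbers covered nearly the whole range of chromosome 14. In order of position they were 18, 571, 715, 3, 192, 260, 38 and 261. Number 3 ranked as the 3rd lowest of the chromosome and 715 stood at percentile 99.2, and these extremes were neighbours, 16.9 kb apart. The peak nearest to the gene had number 571, at percentile 94.2. Numbers 260 and 261 belonged to peaks with another peak, number 38, between them. In all 3 of 8 were numbered 1 to 100, against 30.0% of the other peaks of chromosome 14, and the median percentile was 60.1. At Klf4 the numbers were 77, 154, 92 and 371 in order of position, with 2 of 4 in 1 to 100, against 15.5% of the other peaks of chromosome 4. With 8 peaks at Klf5 and 4 at Klf4, these shares are rough and set neither locus apart from its chromosome. The peak nearest to Klf4 was number 92. The median percentile was 18.7 at Klf4 and 23.3 at Grhl3, but single members ranged from 12 to 48.2 at Klf4 and from 1.93 to 94.0 at Grhl3.

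Widths, which are those of the overlap intervals and not of whole binding sites, were mostly close to the list's median of 143 bp. The Klf4 peaks were 157, 131, 160 and 152 bp wide in order of position, with a median of 154.5 bp, against 142 bp for the other peaks of chromosome 4. The Klf5 peaks had a median of 151.5 bp, against 144 bp for the other peaks of chromosome 14. The Grhl3 peaks had a median of 130.5 bp, against 142 bp for the other peaks of chromosome 4. Narrow intervals, 83 bp or less, numbered 1 of 8 at Klf5 and 1 of 10 at Grhl3 and were absent from the 4 at Klf4. Of the other peaks of the chromosome, 6.14% were narrow for Klf5, 8.02% for Grhl3 and 8.11% for Klf4. With so few peaks, these counts set no locus apart from its chromosome. The narrow Klf5 interval, 55 bp, was number 715, the highest in the locus. The narrow Grhl3 interval, 63 bp, was the middle one of the 3 peaks at the higher end of the gene interval, and the widest member of all loci, 165 bp, was the next peak above it.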

How the data were processed

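The data were 1 list of overlap peaks from ChIP-seq with 2 Gata6 antibodies. BWA and HOMER are the tools, and mm9 the build, in the submitters' processing notes, which give no version or role. Calling threshold, lists intersected and minimum overlap: not given in the sources used. Start, end and name were read as deposited by the authors and are given 1-based. The deposited score is 0 in every row. No library depth was at hand. Density was peaks per Mb between the first and last peak of a chromosome, windows were counted without overlap from the first peak on and include the locus itself, and percentiles rank the name numbers listed on the chromosome. Intervals are at 95%, exact Poisson for densities and exact binomial for shares and for ratios between loci. Shares of neighbouring distances count each distance once, whatever its length, and do not give the share of the chromosome in such gaps. No mm9 genome or annotation was used, so no other gene list was placed, and gene order and promoter sequences are RefSeq GRCm38.p6 (promoters matched for 2 of 3 genes). Coordinates are given for all 22 members, as the naming rule asks for loci of 12 peaks or fewer. Members and measures were chosen with earlier results of these data known. The runs of peaks, the distances from genes, the empty flanks and the CACCC search were chosen after the peaks had been seen. Python 3.11.15, NumPy 2.4.6, pandas 2.3.3, SciPy 1.17.1 and matplotlib 3.10.9 were used, and counting functions were tested on simulated data.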

Additional observations from a re-analysis of the deposited data

How the results depend on the processing

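No paired analysis was possible because the list holds no values per replicate, and no library could be left out. Of 42 alternative values for the density, spacing, name numbers and window shares of the Klf4, Klf5 and Grhl3 loci, 38 stayed inside the 95% interval or, for name numbers, the range of the value reported. With few peaks most of these intervals and ranges are wide, so that staying inside shows little. Density ratios of 0.729 at Klf4, against 1.46, and of 2.16 at Klf5, against 4.33, both counted as inside. With all autosomes in place of the chromosome, windows with as many peaks were 37.7% for Klf4 (29.5% on its chromosome) and 16.3% for Klf5 (6.17%). With a neighbour distance of 20 kb, the share of Klf5 peaks with a neighbour was 50%, against 0.0% at 5 kb, and with 1 kb the Grhl3 share was 0.0%, against 50% at 5 kb. Both moves follow from the distances allowed. The density ratio stayed between 3.40 and 7.93 at Grhl3, between 2.16 and 4.38 at Klf5 and between 0.729 and 2.91 at Klf4. Few peaks per locus and rounded gene positions limit all values, and library depth, unknown here, limits which sites are listed. Moving the upper edge of the Grhl3 interval by 5 kb, an alternative chosen after seeing the data, gave 0 peaks in the interval when moved down and 3 when moved up, against 3 as given.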
